A study of Mus musculus with 8 samples.

Results

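The 10 genes described here encode the contractile apparatus of smooth muscle and the coactivator that switches it on: Acta2, Actg2, Myh11, Tagln, Cnn1, Des, Smtn, Myocd, Lmod1 and Synpo2. Their probes were found through the RefSeq accession that the array files give, not through their values. They had 17 of the 56605 probes of the array, of which 16 were among the 37116 probes kept because some group had them well above background in both its mice. Each of the 10 genes had such a probe, as did 16571 of the 22911 named genes on the array. Lung RNA came from 8 female BALB/c mice, 2 a group, with 1 single-color array a mouse. NT mice received standard feed and no ovalbumin (OVA). Ctrl-F mice received the same feed, Cap-F mice feed with control carbonate apatite particles, and ODNcap-F mice feed with such particles that carry a CpG-oligodeoxynucleotide, at 1 mg particle per g feed in the study's methods. These 3 groups were sensitized to OVA by injection on Days 42, 49 and 56 and inhaled it from Day 63 to Day 69. The mice were bought at 4 weeks of age, housed for 2 weeks and fed their diet for 70 days, and lungs were taken 24 h after the last aerosol. A lung extract mixes airway and vessel muscle with all other lung cells, so fewer muscle cells and less RNA per muscle cell cannot be told apart. With 2 mice a group, an exact permutation test of 1 gene has no two-sided p below 0.333, and the p-values below rest on a fit over all probes.

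Smooth muscle wraps the airways and the vessels of the lung. It shortens when myosin II pulls on actin filaments, and cells that are committed to contraction carry their own forms of these proteins together with calponin, transgelin, smoothelin, desmin and leiomodin. Most of these genes are switched on by serum response factor (Srf), which binds a CArG box in the DNA, with myocardin as its coactivator. More smooth muscle around the airways is a known feature of lungs exposed to an inhaled allergen for a long time.

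The CArG box is 10 bases long, CC and GG at its ends with 6 bases between them that are each A or T. It was searched on both strands in RefSeq promoter windows of GRCm38.p6, which run from 250 bases before to 50 bases after a start. Windows were given for 6 of the 10 genes, Acta2, Cnn1, Des, Smtn, Lmod1 and Synpo2. None of the 6 held an exact box, which 1.81% of all 27025 genes with a window did. With 1 base of the core allowed to differ, Acta2 held 2 and the other 5 genes none, against 11.3% of all genes. The same stretch of 90 bases, from -104 to -15 relative to the start, is shown for Acta2 and for 3 genes without such a match, Lmod1, Smtn and Des. Capitals mark CArG-like matches.
Acta2, chr19:34255388-34255477, minus strand: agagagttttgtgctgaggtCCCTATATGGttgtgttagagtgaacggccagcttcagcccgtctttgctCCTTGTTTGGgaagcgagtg
Lmod1, chr1:135324709-135324798, plus strand: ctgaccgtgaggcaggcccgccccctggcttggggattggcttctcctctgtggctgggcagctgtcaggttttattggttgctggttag
Smtn, chr11:3539307-3539396, minus strand: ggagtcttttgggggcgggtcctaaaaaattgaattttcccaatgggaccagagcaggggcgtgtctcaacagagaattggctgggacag
Des, chr1:75360188-75360277, plus strand: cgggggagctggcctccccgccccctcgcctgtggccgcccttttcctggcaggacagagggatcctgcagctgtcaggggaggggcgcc

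For comparison, exact boxes stood in the promoters of Srf itself, which is known to bind its own promoter, and of Fhl1, a LIM protein of muscle. Both belong to the lists of other genes described further on, in which 11 of 75 genes with a window held an exact box.
Srf, chr17:46556205-46556264, minus strand: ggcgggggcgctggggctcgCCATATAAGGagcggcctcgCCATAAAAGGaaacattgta
Fhl1, chrX:56779561-56779600, plus strand: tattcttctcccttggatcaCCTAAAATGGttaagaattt

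Between 61.3% and 65% of all probes were well above background on single arrays, no spot was saturated, and the correlation of log2 signals between the 2 mice of a group lay between 0.994 and 0.996. All levels below are quantile-normalized signals on the log2 scale, and a gene with several probes is represented by the brightest. The probes that stand for the 10 genes were well above background on all 8 arrays. The arrays of NT and Ctrl-F lay in the first row of the slide and those of Cap-F and ODNcap-F in the second, so that for comparisons across the rows an effect of the row cannot be told apart from that of the group. A gene is said to have risen or fallen at a Benjamini-Hochberg adjusted p under 0.05 in limma, over all 37116 probes, and differences are log2 of the first group over the second.

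Against NT, the contractile genes split. Myocd and Actg2 rose in all 3 OVA groups, Acta2 rose in Cap-F and ODNcap-F, Smtn fell in all 3, and the other 6 genes did not pass the test. That is 3 of 10 genes in Ctrl-F (2 higher, 1 lower), 4 of 10 in Cap-F and 4 of 10 in ODNcap-F (3 higher and 1 lower in each). In Ctrl-F the median difference over the 10 genes turned with the mouse left out: 0.51 without mouse 1 and -0.095 without mouse 2. Changes against NT were common in these lungs: 61% of all probes passed in Ctrl-F (26.5% higher, 34.5% lower), 56% in Cap-F (24% higher, 31.9% lower) and 59% in ODNcap-F (25.2% higher, 33.8% lower). The share of contractile genes that passed, 30%, 40% and 40%, was below that of all probes in each comparison. The median difference over the 10 genes was 0.21 for Ctrl-F, 0.39 for Cap-F and 0.32 for ODNcap-F, beside -0.096, -0.10 and -0.11 over all probes. Where a fold over 2 was asked for as well, Myocd alone passed, 1 of 10 genes in each group, beside 22.1%, 19.1% and 20% of all probes. The local-pooled-error test, in which the spread comes from probes of like signal, called 7 (3 higher, 4 lower), 6 and 4 genes, beside 51.2%, 44.8% and 46.1% of all probes. The 2 mice of a group lay apart from both NT mice for 6, 8 and 8 of the 10 genes, as they did for 83.5%, 81.9% and 81.7% of all probes. The 3 comparisons share the NT mice and are not independent of each other.

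**Figure D1:**
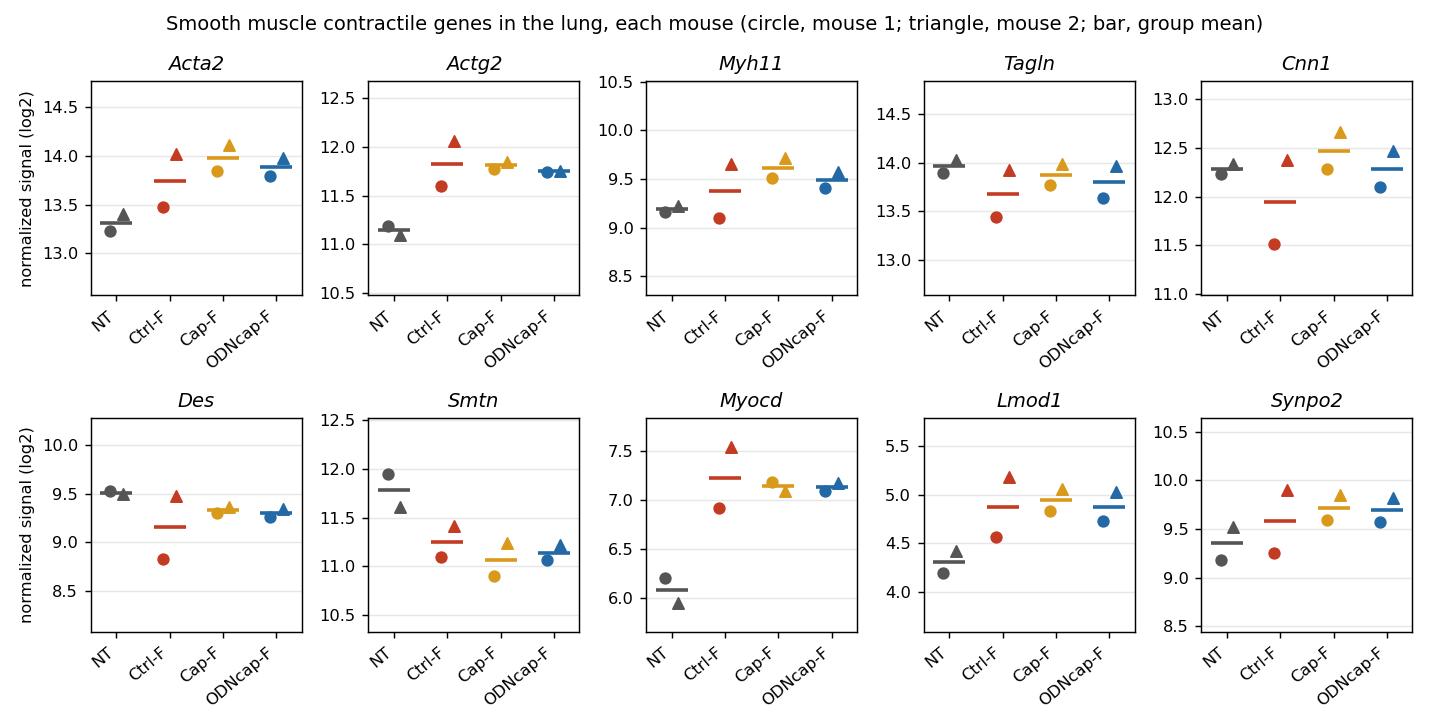
Normalized log2 signal of the 10 contractile genes in each of the 8 mice, by group, on axes of equal span, with a circle for mouse 1, a triangle for mouse 2 and a bar for the group mean. For Acta2, Actg2, Myocd and Lmod1 the 6 OVA mice lie above both NT mice, for Des and Smtn below both, and in Ctrl-F mouse 1 lies under mouse 2 for each gene.

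Myocd, the coactivator of Srf that drives the muscle program, had log2 levels of 6.20 and 5.95 in the NT mice, 6.92 and 7.55 in Ctrl-F, 7.19 and 7.09 in Cap-F, and 7.09 and 7.17 in ODNcap-F. The 6 OVA mice lay above both NT mice, with the 2 Ctrl-F mice at the ends of their range. Myocd rose by 1.16 ± 0.21 (SE) in Ctrl-F, a 2.23-fold difference (n = 2 mice a group, limma adjusted p = 0.00417). It rose by 1.07 in Cap-F (adjusted p = 0.00639) and by 1.06 in ODNcap-F (adjusted p = 0.00633, limma). It was the contractile gene with the largest difference in each of the 3 comparisons, and it passed the test in each of 12 other settings. Of these, the unadjusted p and the mean of a gene's probes could not turn out otherwise, as Myocd has 1 probe. With any 1 of the 8 mice left out, its difference ran from 0.85 to 1.47 in Ctrl-F. It ran from 0.94 to 1.20 in Cap-F and from 0.93 to 1.18 in ODNcap-F. With the normexp background correction the difference was 0.71 for Ctrl-F, 0.66 for Cap-F and 0.61 for ODNcap-F, smaller by more than 1.5 times.

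The actins of smooth muscle moved less than Myocd. Actg2, the gamma actin best known from visceral muscle, had log2 levels of 11.19 and 11.09 in the NT mice, 11.60 and 12.06 in Ctrl-F, 11.78 and 11.85 in Cap-F, and 11.75 and 11.75 in ODNcap-F. No OVA mouse overlapped with NT, and the 2 mice of Cap-F and of ODNcap-F lay close together. Actg2 rose by 0.68 ± 0.15 (SE) in Ctrl-F (limma adjusted p = 0.00903), by 0.67 in Cap-F (adjusted p = 0.0108) and by 0.61 in ODNcap-F (adjusted p = 0.0147). The call in Cap-F was lost without NT mouse 2 (limma adjusted p = 0.0579) and without Cap-F mouse 2 (adjusted p = 0.051), and that in ODNcap-F without NT mouse 2 (adjusted p = 0.0726) and without either ODNcap-F mouse (adjusted p = 0.0554 and 0.0573).

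Acta2, the alpha actin of vascular and airway muscle and of myofibroblasts, had log2 levels of 13.23 and 13.40 in the NT mice, 13.47 and 14.02 in Ctrl-F, 13.85 and 14.11 in Cap-F, and 13.80 and 13.97 in ODNcap-F. The 6 OVA mice again lay above NT, with Ctrl-F mouse 1 just above the higher NT mouse. Acta2 rose by 0.67 ± 0.20 (SE) in Cap-F (limma adjusted p = 0.0298) and by 0.57 in ODNcap-F (adjusted p = 0.0473), and its difference of 0.43 in Ctrl-F did not pass (adjusted p = 0.104). In Ctrl-F it passed in 5 of 12 other settings. The limma adjusted p was 0.0366 under 75th percentile scaling, 0.025 with the replicate block, 0.0476 with an intensity trend and 0.0124 for the mean of its probes. In the local-pooled-error test the adjusted p was 0.00169. The block takes same-numbered mice as pairs, which the labels do not give. Without Ctrl-F mouse 1 the difference of Acta2 in Ctrl-F was 0.70, and without Ctrl-F mouse 2 it was 0.16. Acta2 differed from Ctrl-F by 0.24 in Cap-F (limma adjusted p = 0.581) and by 0.14 in ODNcap-F (adjusted p = 0.929), so no difference between the OVA groups was shown. The call in Cap-F was lost without NT mouse 1 (adjusted p = 0.128), NT mouse 2 (0.0685) or Cap-F mouse 2 (0.13), and that in ODNcap-F without any 1 mouse of NT, Cap-F or ODNcap-F (adjusted p from 0.0582 to 0.18, limma). Both calls were lost without the filter on dim probes (adjusted p = 0.0637 and 0.0929) and with a fold over 2. Acta2 had 2 more probes. They gave differences of 0.35 (adjusted p = 0.0239) and 1.11 (adjusted p = 0.00446) in Ctrl-F, and rose in Cap-F and ODNcap-F too, so the 3 probes shared the direction but not the size. The actin genes are close in sequence, and the probe sequences are not among the columns used, so cross-hybridization between them could not be checked.

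Leiomodin 1 (Lmod1), which nucleates actin filaments in smooth muscle, was measured by a dim probe. Its log2 levels were 4.20 and 4.43 in the NT mice, 4.56 and 5.18 in Ctrl-F, 4.83 and 5.06 in Cap-F, and 4.73 and 5.03 in ODNcap-F. The 6 OVA mice lay above both NT mice. The differences of 0.56 for Ctrl-F, 0.63 for Cap-F and 0.57 for ODNcap-F did not pass the test (limma adjusted p = 0.0751, 0.0561 and 0.0747). They passed with the replicate block (limma adjusted p = 0.0129, 0.00964 and 0.0131), which assumes pairs that the labels do not give. The differences were smaller with the normexp background correction, at 0.16, 0.14 and 0.20, and in the deposited table, at 0.34, 0.40 and 0.34. Without Ctrl-F mouse 1 the difference in Ctrl-F was 0.87, and without Ctrl-F mouse 2 it was 0.25.

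Myh11, the myosin heavy chain that defines smooth muscle cells, had log2 levels of 9.17 and 9.22 in the NT mice, 9.10 and 9.66 in Ctrl-F, 9.51 and 9.71 in Cap-F, and 9.41 and 9.57 in ODNcap-F. Cap-F and ODNcap-F did not overlap with NT, whereas Ctrl-F mouse 1 was the lowest of all 8 mice. None of the differences, 0.19 ± 0.19 (SE) for Ctrl-F, 0.42 for Cap-F and 0.30 for ODNcap-F, passed the test (limma adjusted p = 0.427, 0.105 and 0.221). The 2 other probes of Myh11 gave 0.23 and 0.22 in Ctrl-F, 0.49 and 0.36 in Cap-F, and 0.34 and 0.37 in ODNcap-F, and did not pass either. Without Ctrl-F mouse 1 the difference in Ctrl-F was 0.46, and without Ctrl-F mouse 2 it was -0.095. The difference in Cap-F passed in 4 of 12 other settings (adjusted p from 0.0209 to 0.0499, limma or the local-pooled-error test). Synpo2, an actin-bundling protein of the Z-disc and of dense bodies, had log2 levels of 9.18 and 9.52 in the NT mice, 9.26 and 9.90 in Ctrl-F, 9.60 and 9.85 in Cap-F, and 9.57 and 9.82 in ODNcap-F. Its differences of 0.23, 0.37 and 0.34 did not pass (limma adjusted p = 0.447, 0.24 and 0.264), and only Ctrl-F mouse 1 lay among the NT mice. Of its 2 probes, the dimmer was well above background on 1 array and was left out.

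Smtn encodes smoothelin, a protein of actin filaments found in fully contractile cells. Its log2 levels were 11.95 and 11.61 in the NT mice, 11.10 and 11.41 in Ctrl-F, 10.90 and 11.23 in Cap-F, and 11.06 and 11.21 in ODNcap-F. Each of the 6 OVA mice lay below both NT mice. Smtn fell by 0.52 on the log2 scale in Ctrl-F (limma adjusted p = 0.0454), by 0.71 in Cap-F (adjusted p = 0.0174) and by 0.64 in ODNcap-F (adjusted p = 0.0242), each with an SE of 0.18. Its second probe gave -0.58, -0.73 and -0.58 and passed in all 3 groups as well. The call in Ctrl-F was lost without NT mouse 1 (limma adjusted p = 0.204), Ctrl-F mouse 1 (0.199) or either ODNcap-F mouse (0.0651 for each). It was also lost in 5 of 12 other settings: 75th percentile scaling (limma adjusted p = 0.0656), no filter on dim probes (0.089), the replicate block (0.0581), a fit of only the 2 groups (0.0657) and a fold over 2. In Cap-F it was lost without NT mouse 1 (adjusted p = 0.0873) or Cap-F mouse 1 (0.0856), and in ODNcap-F without NT mouse 1 (adjusted p = 0.117) or either ODNcap-F mouse (0.102 and 0.056, limma), and there without the filter too (0.0516).

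Des, the intermediate filament desmin, had log2 levels of 9.53 and 9.49 in the NT mice, 8.83 and 9.47 in Ctrl-F, 9.30 and 9.36 in Cap-F, and 9.27 and 9.34 in ODNcap-F. All 6 OVA mice were below both NT mice, though Ctrl-F mouse 2 lay just under the NT range, and the differences of -0.36, -0.18 and -0.20 did not pass (limma adjusted p = 0.164, 0.474 and 0.405). Without Ctrl-F mouse 2 the difference in Ctrl-F was -0.68, and without Ctrl-F mouse 1 it was -0.036.

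Tagln and Cnn1 encode transgelin and calponin, which bind actin filaments in smooth muscle. Tagln had log2 levels of 13.89 and 14.03 in the NT mice, 13.44 and 13.92 in Ctrl-F, 13.77 and 13.98 in Cap-F, and 13.64 and 13.97 in ODNcap-F. Its differences of -0.28, -0.085 and -0.16 did not pass (limma adjusted p = 0.254, 0.729 and 0.51). Cnn1 had log2 levels of 12.23 and 12.33 in the NT mice, 11.51 and 12.37 in Ctrl-F, 12.28 and 12.66 in Cap-F, and 12.10 and 12.47 in ODNcap-F. By the probe that stands for it, each gene overlapped with NT in all 3 groups. Cnn1 differed more between the 2 Ctrl-F mice than any other of the 10 genes. A second, dimmer probe of Cnn1 gave -0.39, -0.12 and -0.29 and did not pass (limma adjusted p = 0.466, 0.83 and 0.589). It did not overlap with NT in ODNcap-F. By the brighter probe, the differences of Cnn1 were -0.34 ± 0.30 (SE) for Ctrl-F, 0.19 for Cap-F and 0.0012 for ODNcap-F, with limma adjusted p = 0.363, 0.616 and 0.998. Without Ctrl-F mouse 2 the first was -0.77, and without Ctrl-F mouse 1 it was 0.091.

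**Figure D2:**
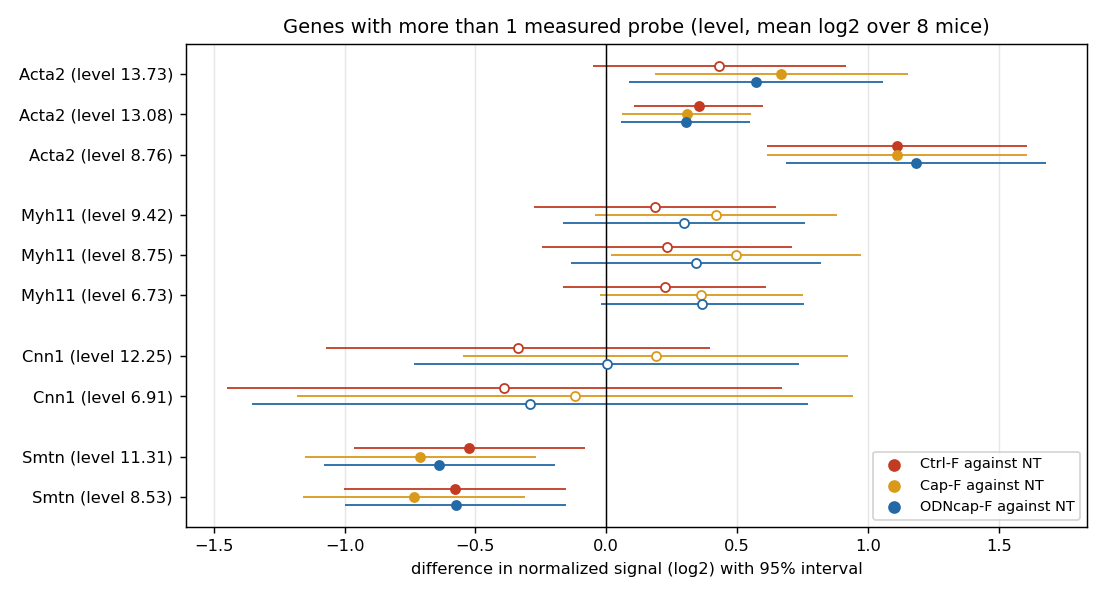
Difference of each OVA group from NT (log2, with the 95% interval of limma) for each probe of the 4 genes with more than 1 kept probe, filled where the adjusted p was under 0.05, with the mean log2 level of the probe beside its gene. The probes of Smtn lie on the lower side and those of Acta2 and Myh11 on the higher side in all 3 groups, and the dimmest Acta2 probe shows the largest difference of the 3, at 1.11 in Ctrl-F. The dimmer Cnn1 probe lies on the lower side in all 3 groups, the brighter only in Ctrl-F.

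Counted by mouse, 4 of the 10 genes (Acta2, Actg2, Myocd and Lmod1) had all 6 OVA mice above both NT mice, as did 29.1% of all probes. Another 2 (Des and Smtn) had all 6 below, as did 39.6% of all probes, and the other 4 overlapped. The highest mouse of the 8 was a Ctrl-F mouse for 4 genes, a Cap-F mouse for 3 and an NT mouse for 3. This was not counted over all probes, and none of the 10 genes passed between OVA groups.

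The feeds were compared within the OVA mice, to ask whether particles with or without the oligodeoxynucleotide changed the contractile genes. None of the 10 genes passed between ODNcap-F and Ctrl-F, between ODNcap-F and Cap-F or between Cap-F and Ctrl-F, in limma at an adjusted p or at an unadjusted p under 0.05. Of all probes, 0% passed at an adjusted p between ODNcap-F and Ctrl-F, 0.00269% between ODNcap-F and Cap-F and 0.00269% between Cap-F and Ctrl-F. At an unadjusted p these shares were 6.73%, 13% and 16.2%. The local-pooled-error test passed 0.719%, 0.722% and 1.29% of all probes and again none of the 10 genes. Differences ran from -0.11 (Smtn) to 0.34 (Cnn1) in ODNcap-F against Ctrl-F, from -0.19 (Cnn1) to 0.072 (Smtn) for ODNcap-F against Cap-F, and from -0.19 (Smtn) to 0.53 (Cnn1) for Cap-F against Ctrl-F. The 95% intervals were wide: those of ODNcap-F against Ctrl-F reached from -0.61 (Myocd) to 1.07 (Cnn1), those of ODNcap-F against Cap-F from -0.92 (Cnn1) to 0.57 (Synpo2), and those of Cap-F against Ctrl-F from -0.63 (Smtn) to 1.26 (Cnn1). Each interval is for 1 gene, rests on the spread in the fit of all 4 groups, and is not adjusted for the number of genes. The median over the 10 genes was 0.11 between ODNcap-F and Ctrl-F and 0.16 between Cap-F and Ctrl-F, and both turned negative, to -0.19 and -0.16, without Ctrl-F mouse 1, whereas they were 0.37 and 0.45 without Ctrl-F mouse 2.

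**Figure D3:**
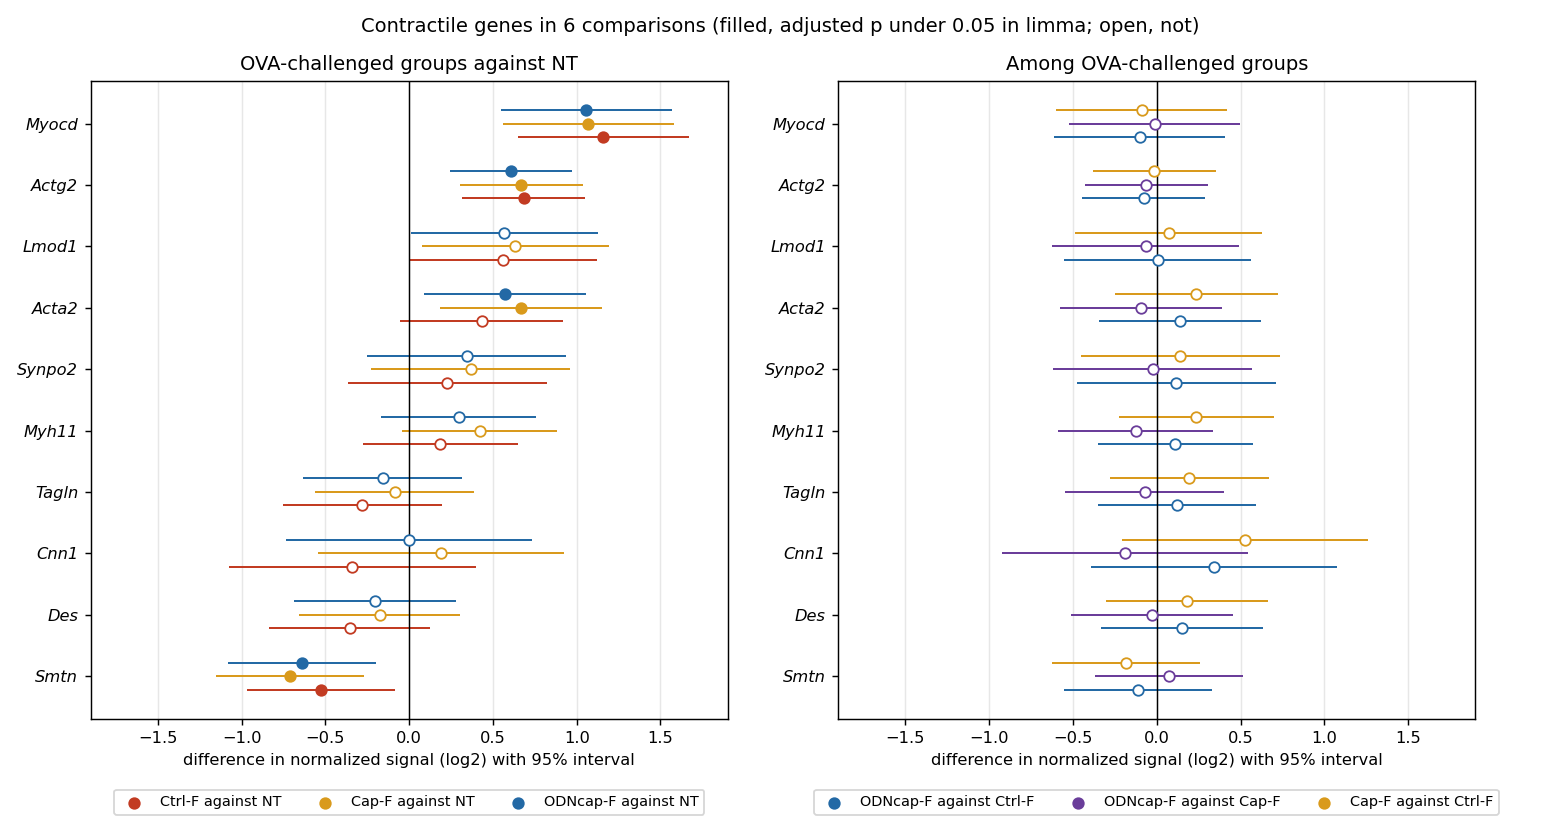
Difference in normalized signal (log2) of the 10 genes with its 95% interval in limma, for the OVA groups against NT (left) and among the OVA groups (right), filled where the adjusted p was under 0.05. On the left Myocd, Actg2 and Smtn are filled in all 3 groups and Acta2 in Cap-F and ODNcap-F, and on the right no point is filled and each interval holds 0.

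By the median over the 10 genes, the widest spread within a group was that between the 2 Ctrl-F mice, which had the same feed and OVA exposure. Mouse 1 lay below mouse 2 for 10 of 10 genes, by a median of 0.59 and between 0.31 (Smtn) and 0.86 (Cnn1). Of all probes, 50.1% were lower in mouse 1. For 9 of 10 genes the gap was over 0.4, against 5.46% of all probes, and for 9 of 10 genes mouse 1 was the lowest of the 6 OVA mice, against 14.3% of all probes. The exception to the latter was Smtn, lowest in Cap-F mouse 1. For Myh11, Tagln, Cnn1 and Des, Ctrl-F mouse 1 was the lowest of all 8 mice, as it was for 12.2% of all probes. Mouse 2 was higher for 9 of 10 genes in Cap-F (median 0.23) and 10 of 10 in ODNcap-F (median 0.17), and for 6 of 10 in NT (median 0.078). Of all 37116 probes, 16803 were higher in mouse 2 in Cap-F, 17738 in ODNcap-F and 18858 in NT. The labels do not say whether replicate numbers pair mice across groups, so these directions are given only as a description of 4 pairs.

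**Figure D4:**
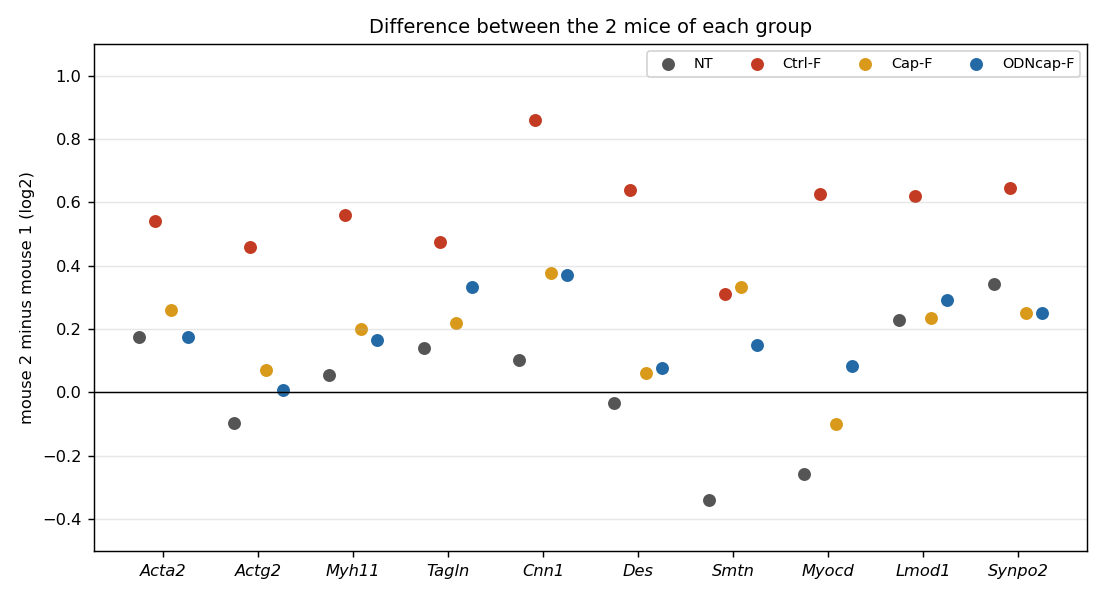
Mouse 2 minus mouse 1 (log2) for each of the 10 genes in each group, 1 point a group. The Ctrl-F points lie between 0.31 and 0.86 and above those of the other groups for each gene but Smtn, where the Cap-F mice differed by 0.33.

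The direction of this gap was shared by some of the other lists and less or not by the rest. Of 20 other genes of the contractile apparatus and cytoskeleton 20 were higher in mouse 2, by a median of 0.24. Of 12 cardiomyocyte genes 10 were higher, by a median of 0.44, of 7 myofibroblast genes 6, by a median of 0.33, and of 9 pericyte genes 7, by a median of 0.14. Of 15 regulators of contraction 10 were higher (median 0.051), and of 10 genes of the transcription list 6 (0.093). Of 9 fibroblast genes 6 were higher (median 0.11), of 7 skeletal muscle genes 4 (0.13) and of 7 lung markers 3 (0). Of 4 cytoplasmic actin and non-muscle myosin genes 2 were higher (median 0.0060). In Cap-F the cardiomyocyte genes differed by a median of 1.63, where the contractile genes differed by 0.23. The mean level of the 12 cardiomyocyte genes was 9.82 and 8.99 in the NT mice and 7.24 and 7.64 in Ctrl-F. It was 7.24 and 9.19 in Cap-F and 8.81 and 9.39 in ODNcap-F. In the same order, the means of the contractile genes were 10.08 and 10.11, 9.98 and 10.55, 10.30 and 10.49, and 10.24 and 10.43. Of the 12 cardiomyocyte genes, 12 were higher in mouse 2 in Cap-F, 12 in ODNcap-F and 0 in NT. Against NT, 7 of the 12 cardiomyocyte genes fell in Ctrl-F, 1 fell in Cap-F and 1 fell in ODNcap-F. For this count and the next ones, 34.5%, 31.9% and 33.8% of all probes fell, and 26.5%, 24% and 25.2% rose. Of 10 skeletal muscle genes 7 were measured, with 0 higher and 2 lower in Ctrl-F, 2 higher and 1 lower in Cap-F, and 1 higher and 1 lower in ODNcap-F. Acta1, the skeletal actin, had log2 levels of 7.96 and 7.71 in the NT mice, 8.01 and 8.64 in Ctrl-F, 8.35 and 8.77 in Cap-F, and 8.56 and 8.72 in ODNcap-F. Its difference from NT was 0.49 in Ctrl-F (limma adjusted p = 0.125), and it rose by 0.72 in Cap-F (adjusted p = 0.0445) and by 0.80 in ODNcap-F (adjusted p = 0.0302). These were the highest values of the 7 genes, of which 4 lay below NT in each OVA group, down to -2.12, -2.70 and -2.69. None of the 7 passed between OVA groups. The 7 lung markers, among them the surfactant gene Sftpc, had a mean level of 15.12 in each NT mouse. In the OVA mice it lay between 14.70 and 14.88. Of these 7 markers, 3 fell and 0 rose in each OVA group, with medians of -0.50, -0.43 and -0.041. From these same arrays, quantitative PCR and staining for cardiac troponin T, the study proposes injury of cardiomyocytes of the pulmonary veins in Ctrl-F and Cap-F. The part of such cells or of heart tissue in the results was not tested.

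Of the genes that work beside these 10 in muscle, none rose against NT and many fell, where 34.5%, 31.9% and 33.8% of all probes fell. Of the 20 other genes of the contractile apparatus and cytoskeleton, 12 fell in Ctrl-F, against 10 in Cap-F and 11 in ODNcap-F, and 0 rose, with medians of -0.60, -0.44 and -0.51. Itga8, the integrin alpha 8 chain found on muscle and interstitial cells, fell by 2.51 on the log2 scale in Ctrl-F (limma adjusted p = 2.65e-05), from log2 levels of 13.62 and 13.76 in NT to between 11.05 and 11.32 in the OVA mice. Synm, the intermediate filament protein synemin, fell by 2.37 in Ctrl-F, Fhl1 by 1.72 and vinculin (Vcl) by 1.05. The myosin light chain kinase gene Mylk fell by 0.80 for Ctrl-F, 0.62 for Cap-F and 0.76 for ODNcap-F. Tpm2, the beta tropomyosin, had 0.072, 0.25 and 0.22 and did not pass.

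Of 15 regulators of contraction 11 fell in Ctrl-F, 11 fell in Cap-F and 10 fell in ODNcap-F, with 0 higher and medians of -0.83, -0.60 and -0.62. Among them were Ppp1r14a, an inhibitor of myosin phosphatase, which fell by 1.58 on the log2 scale in Ctrl-F, and Prkg1, the cGMP-dependent kinase that relaxes smooth muscle, which fell by 1.38. Kcnmb1, the beta subunit of the calcium-activated potassium channel and largely restricted to smooth muscle, had -0.11, 0.071 and -0.080 and did not pass.

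Of 10 other genes of the transcription of the muscle program, 6 fell in Ctrl-F, against 7 in Cap-F and 6 in ODNcap-F, and 0 rose. Srf had -0.21 in Ctrl-F (limma adjusted p = 0.0591), fell by 0.27 in Cap-F (adjusted p = 0.0318) and had -0.15 in ODNcap-F. Mrtfb, a coactivator related to myocardin, fell by 0.40 in Ctrl-F, and its relative Mrtfa had -0.098 and did not pass. Klf4, a repressor of contractile genes in cultured muscle cells, fell by 1.48, and Foxf1, a factor of lung mesenchyme, by 1.70 (both Ctrl-F). The cytoplasmic actins Actb and Actg1 had 0.012 and -0.030 in Ctrl-F and did not pass, and the non-muscle myosin gene Myh10 fell by 2.53.

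**Figure D5:**
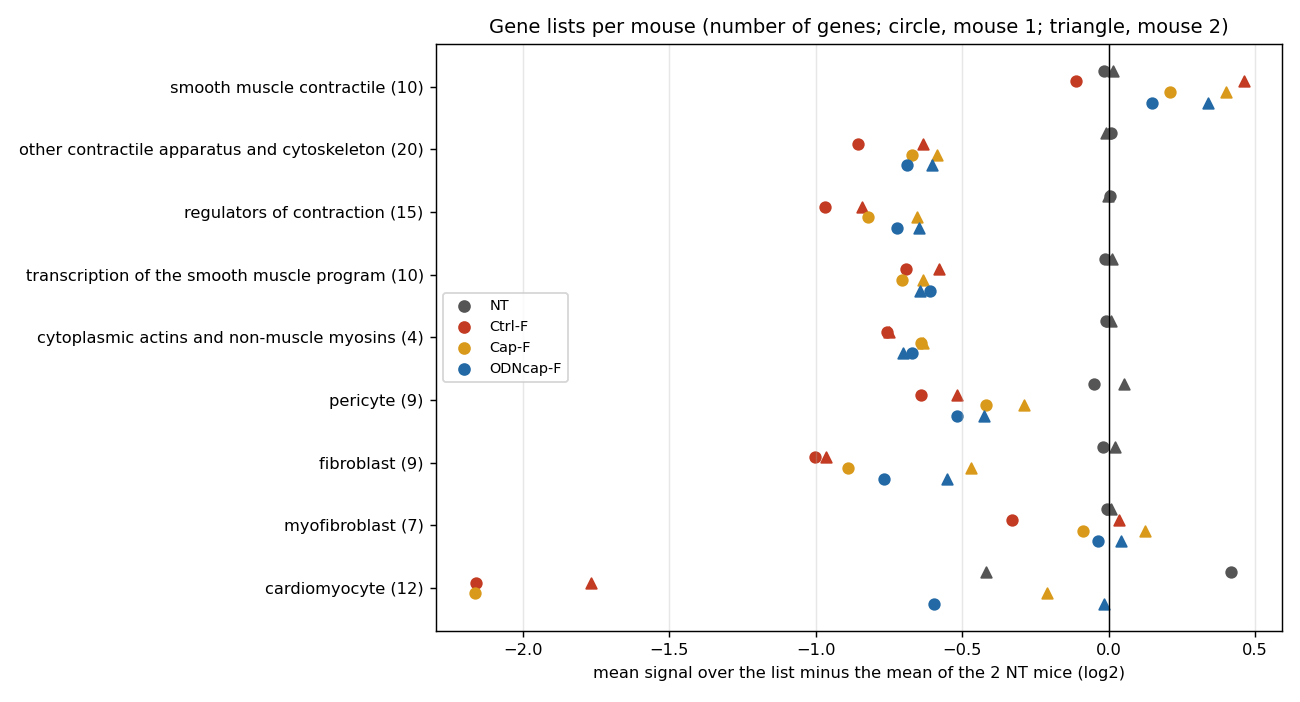
Mean log2 signal over each gene list in each mouse, minus the mean of the 2 NT mice, with a circle for mouse 1 and a triangle for mouse 2 and the number of genes in brackets. The OVA mice lie above NT for the 10 contractile genes, except Ctrl-F mouse 1 at -0.11, and below NT for the other muscle lists, pericytes and fibroblasts, while the cardiomyocyte list spreads most between mice of 1 group.

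Other cells that carry contractile genes were read from marker lists. Of 9 pericyte markers, 8 fell in Ctrl-F, against 7 in Cap-F and 8 in ODNcap-F, among them Pdgfrb (-1.06 in Ctrl-F) and Notch3 (-1.33), and 1 rose in each, Rgs5, a regulator of G-protein signalling. Rgs5 had log2 levels of 5.95 and 6.07 in NT and between 8.75 and 9.01 in the 6 OVA mice, and rose by 2.87 in Ctrl-F (limma adjusted p = 1.75e-05). Of 7 myofibroblast markers measured of 8, 1 rose in each OVA group, Tnc (tenascin C), by 1.78 in Ctrl-F, and 2, 3 and 2 fell. The medians of this list were -0.23, -0.20 and -0.11, and the lowest difference in Ctrl-F was that of Hhip, at -1.16. Of 9 fibroblast markers, 6, 5 and 4 fell and 2, 3 and 2 rose, with medians of -1.57, -0.81 and -0.87. In Ctrl-F the lowest difference was that of Lum, at -2.88, and those that rose were Col3a1 (1.28) and Col1a1 (0.50). The part of these other cells in the results was not tested.

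Genes whose pattern over the 8 arrays was most like that of the mean of the 10 genes, out of 16461 compared, were Dtwd1 (Pearson r = 0.93), Vps26b (0.906), Krtap4-16 (0.895), 1700034P13Rik (0.894) and Abhd2 (0.889). For Myh11 alone they were AA465934 (r = 0.929), Krtap4-16 (0.914), F3 (0.91), Dtwd1 (0.902) and Tmem41b (0.895). The 8 points share 1 slide and 1 normalization, and the values are a description over few arrays. Dtwd1 had log2 levels of 7.12 and 7.15 in the NT mice, 7.06 and 7.38 in Ctrl-F, 7.19 and 7.34 in Cap-F, and 7.31 and 7.33 in ODNcap-F, with Ctrl-F mouse 1 lowest, as for the mean of the 10 genes.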

How the data were processed

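Lung RNA of 8 mice was hybridized to 1 single-color Agilent mouse array each, all on 1 slide. Per array, the authors deposited a background-subtracted intensity for every spot, made with Agilent Feature Extraction 11.0, with raw median intensities and 0 or 1 flags, and 1 table of log2 values, quantile normalized by the authors over the 8 arrays, which holds all 10 genes. Columns of per-sample values that could not be mapped numbered 0.

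The members and lists were chosen with earlier results of these data known. Control spots and 792 outlier-flagged spot values were left out. The log2 intensities of the spots of 1 probe were averaged, and probes were then quantile normalized. A probe was kept where both mice of some group had it well above background. The files hold no gene names, so probes were named by RefSeq accession through a table of GRCm38.p6, which matched 32994 of 56605 probes. The array annotation in the files names another build, so no coordinates were taken from it. The brightest kept probe stood for a gene.

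A single model in limma 3.58.1 (R 4.3.3) took all arrays, with 4 groups and no covariate, with 4 residual degrees of freedom, to which moderation added 1.96. The p-values were adjusted by Benjamini-Hochberg over 37116 probes. The labels give each array as a separate mouse. The fit and the local-pooled-error test that the study's methods name, rebuilt here with 100 intensity bins, were tested on simulated data. Named were the 10 genes, the genes of the lists, and 5 genes each closest to the mean of the 10 and to Myh11. Alternatives were 75th percentile scaling, normexp (offset 50) on the raw medians, the deposited table, no filter or a filter on all arrays, a replicate block, an intensity trend, fits of 2 groups, the mean of a gene's probes, the local-pooled-error test, an unadjusted p, a fold over 2, and each mouse left out. The number of arrays limits the precision.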

Additional observations from a re-analysis of the deposited data

How the results depend on the processing

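Against NT, Myocd passed in all 12 other settings and all 8 fits without a mouse, in each OVA group. The counts of called contractile genes depended on the call rule: with a fold over 2 as well they were 1 for Ctrl-F, 1 for Cap-F and 1 for ODNcap-F, in place of 3, 4 and 4. The local-pooled-error test called 7 in Ctrl-F (3 higher, 4 lower), 75th percentile scaling 3 (3 higher, 0 lower), and without a filter 2 were called in ODNcap-F. Tagln turned to 0.050 in Cap-F and 0.061 in ODNcap-F under 75th percentile scaling, and Cnn1 to -0.14 in ODNcap-F as the mean of its probes. The cause of these changes was not tested. The median over all probes in ODNcap-F against NT was -0.11, with -0.13 under 75th percentile scaling and -0.069 under normexp.

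Without 1 mouse, where a lone mouse is assumed to vary like the other groups, the counts ran from 2 to 5 in Ctrl-F (0 to 3 of them lower), 2 to 6 in Cap-F and 1 to 5 in ODNcap-F. The median against NT ran from -0.095 to 0.51 in Ctrl-F, and the lowest came without Ctrl-F mouse 2 and the highest without Ctrl-F mouse 1. The median of ODNcap-F against Ctrl-F ran from -0.19 to 0.37, that of ODNcap-F against Cap-F from -0.17 to 0.021, and that of Cap-F against Ctrl-F from -0.16 to 0.45. In Ctrl-F, Myh11 ran from -0.095 to 0.46, Cnn1 from -0.77 to 0.091 and Synpo2 from -0.095 to 0.55. In Cap-F, Tagln ran from -0.19 to 0.024 and Cnn1 from -0.00023 to 0.38, and in ODNcap-F Tagln from -0.32 to 0.0083 and Cnn1 from -0.18 to 0.19.

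Over all kept probes, same-numbered mice deviated together with correlations between -0.012 and 0.16. The labels do not say whether the numbers pair mice, and a correlation over all probes cannot decide it for a few genes. With the replicate number as a block, 4 genes were called in Ctrl-F (4 higher, with Smtn lost and Acta2 and Lmod1 gained), against 6 in Cap-F and 5 in ODNcap-F, with the same medians of 0.21, 0.39 and 0.32, and 0 among the OVA groups.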
